A study of Homo sapiens with 6 samples.

Results

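The genes described here are 45 members of the DNA repair and damage checkpoint machinery, taken by symbol from the 58735 genes measured. They comprise 11 genes of homologous recombination, 6 of end resection and dissolution, 11 Fanconi genes, 4 checkpoint kinases, 2 mismatch repair genes, 4 genes of base excision and single-strand break repair, 2 of nucleotide excision repair and 5 of end joining. The first 3 roles, 28 genes, were compared with the 13 mismatch, excision and end-joining genes. The checkpoint kinases were kept apart from both.

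RNA sequencing was performed in PC9-BrM3, a highly brain-metastatic line obtained by repeated passage of PC9 lung adenocarcinoma cells through mice. The BrM3-shAKR1B10 group, 3 libraries, carried a lentiviral shRNA against AKR1B10, an aldo-keto reductase, and is labelled AKR1B10 knockdown. The BrM3-shNC group, 3 libraries, carried a negative control shRNA in the same kind of vector and is labelled WT. All 6 libraries came from cells in routine culture in RPMI-1640, with no drug. By the paper's methods both groups share the lentiviral vector and the line, and 1 shRNA stands for the silencing. Whether the vector differed between the groups was not tested.

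Repair is divided among pathways that read different lesions. Homologous recombination copies a broken stretch from the sister chromatid and therefore works in S and G2 phase, and the Fanconi pathway releases replication forks from crosslinks between the strands and hands the break to recombination. End joining seals breaks without a template in any phase, mismatch repair corrects replication errors, and the excision pathways replace damaged bases or bulky lesions. The kinases ATM and ATR sense breaks and stalled forks and signal through CHEK2 and CHEK1 to hold the cell cycle.

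Between 16964504 and 18709028 reads per library fell on genes. AKR1B10 was measured at 107 to 110.2 FPKM (fragments per kilobase of gene length, scaled to sequencing depth) in the silenced libraries and at 772 to 799 FPKM in the controls, a log2 fold change of −2.85. Of 11 epithelial markers of lung adenocarcinoma, 7 reached a mean of 1 FPKM, and NKX2-1, NAPSA, SFTPB and SFTPC did not; their summed level was 3249 to 3333 FPKM in the silenced and 3076 to 3434 FPKM in the control libraries. Of 10 markers of other cell types, only COL1A1 reached 1 FPKM; CD3E was at 0 in all 3 controls and 1 silenced library, and CD68, COL3A1 and GFAP were each at 0 in some libraries. The sum of these markers was 2.07 to 2.39 FPKM in the silenced and 3.07 to 3.26 FPKM in the control libraries. COL1A1, a fibroblast collagen and the only marker of the 10 that was tested, was called lower by the same limma test as the members (log2 fold change −0.67, adjusted p = 0.00319), and its part in the results was not tested. BrM3-shNC replicate 1 stood apart from the other controls, with a chi-square per gene of 4.88 and 5.42 against them, where the other pairs of libraries within a group gave 2.45 to 2.70. In bulk libraries, fewer cells of a kind and less RNA per cell cannot be told apart. The paper describes its quantitative data as coming from at least 3 independent experiments, without naming the sequencing libraries. No source says that these libraries came from separate cultures, so the p-values measure the spread between these samples, which may be technical.

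Of the 45 members, 42 reached a mean of 1 FPKM over the 6 libraries and were tested. A gene was called changed when its limma p, adjusted by Benjamini-Hochberg over 13150 genes, was under 0.05 and its log2 fold change exceeded 0.5 in size; fold changes are on the scale log2(FPKM + 0.1). After AKR1B10 silencing, 12 members fell and 0 rose. The 12 lower members were 28.6% of those tested, whereas 7.45% of all genes tested were called lower and 5.83% higher. Without a limit on size, 28 members were lower and 3 higher at an adjusted p under 0.05, where 23.1% of all genes were lower and 19.4% higher. Without BrM3-shNC replicate 1 there were also 12 lower members, with FANCL lost and FANCE gained at −0.54. The higher calls without a size limit were less stable: 0 to 2 members were higher when 1 library was left out, and 1 with a replicate block. Among the 42 tested members, the 3 silenced values all lay below the 3 control values in 30 (29.2% of all genes) and all above in 3 (25.5% of all genes). The median log2 fold change of the members was −0.40, and that of all genes −0.01.

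**Figure D1:**
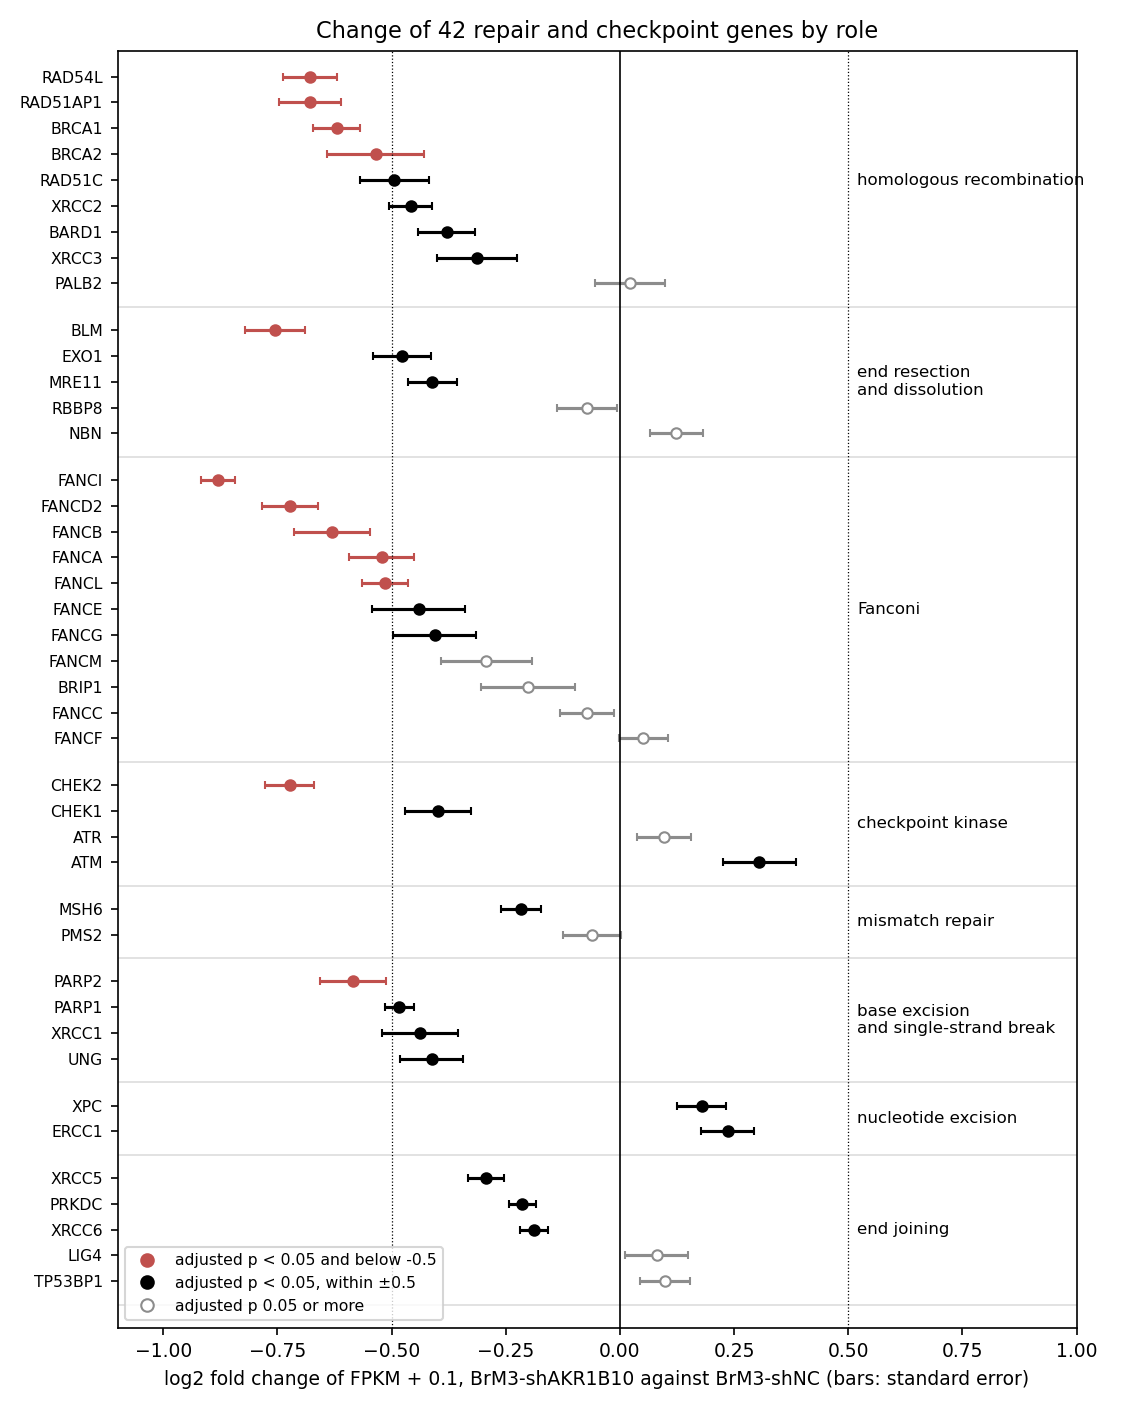
Each point is the log2 fold change of FPKM + 0.1 in BrM3-shAKR1B10 against BrM3-shNC for 1 of the 42 members tested, with bars for the standard error, ordered by role; dotted lines mark −0.5 and 0.5. The 12 members called lower are in red, and ATM, ERCC1 and XPC are the only members right of 0 with an adjusted p under 0.05, which each of them lost when certain libraries were left out.

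Among the genes of homologous recombination, 4 of the 9 tested fell (7.45% of all genes), and 8 of the 9 had an adjusted p under 0.05 in the lower direction (limma; 23.1% of all genes). Their median log2 fold change was −0.49.

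BRCA1, which directs broken ends toward recombination, lies at chr17:43044295-43170245 on the minus strand (GRCh38). BRCA1 was at 3.78, 3.82 and 3.98 FPKM in the silenced libraries and at 5.78, 6.25 and 5.93 FPKM in the controls. The groups did not overlap, and the silenced mean was 64.4% of the control mean (log2 fold change −0.62 ± 0.05 SE, adjusted p = 0.000205, limma). BARD1, the partner of BRCA1 in a ubiquitin ligase, had a log2 fold change of −0.38, inside the limit on size.

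BRCA2, a mediator of strand exchange, was at 1.94, 1.59 and 1.87 FPKM in the silenced libraries and at 2.44, 2.66 and 2.85 FPKM in the controls. All silenced values were below all control values, and the log2 fold change was −0.53 ± 0.11 SE (adjusted p = 0.00755, limma). The call rested on single libraries: without BrM3-shAKR1B10 replicate 2 the change was −0.45, and without BrM3-shNC replicate 3 it was −0.48. PALB2, the protein that bridges BRCA1 and BRCA2, was at 4.29 ± 0.309 FPKM (SD, n = 3) in the silenced and 4.22 ± 0.275 FPKM (SD, n = 3) in the control group. The PALB2 groups overlapped, with a log2 fold change of 0.02 that turned to −0.02 or −0.03 when 1 library was left out.

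RAD54L, a motor protein that acts when a broken end invades the matching strand, was at 6.33, 6.12 and 6.32 FPKM in the silenced libraries and at 10.8, 9.33 and 10.2 FPKM in the controls. The silenced libraries were all low and close to each other, at 62.0% of the control mean (log2 fold change −0.68 ± 0.06 SE, adjusted p = 0.000249, limma). Of the exon bases of RAD54L, 25.1% are shared with LRRC41 on the opposite strand, which was at a mean of 18.0 FPKM in the silenced and 15.5 FPKM in the control group. RAD51AP1, which stimulates that invasion step, was at 8.23, 7.15 and 7.27 FPKM against 12.8, 11.5 and 12.1 FPKM. Its groups were also separate (log2 fold change −0.68 ± 0.07 SE, adjusted p = 0.000446, limma), and none of its exon bases is shared with another gene.

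RAD51C, XRCC2 and XRCC3 belong to small complexes that assist strand exchange. They had log2 fold changes of −0.49, −0.46 and −0.31, each with an adjusted p under 0.05 (limma) and none past the limit on size. RAD51C was the member nearest to that limit from inside, and FANCL, at −0.51, the nearest from outside. XRCC3 shares 76.7% of its exon bases with KLC1 on the opposite strand, so its value carries that uncertainty. In 5 of the 6 fits that left out 1 library, its adjusted p was 0.0649 to 0.0779 (limma), and it was 0.0659 with TPM scaling and 0.0697 with no filter.

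RAD51D and RAD54B stayed under the mean of 1 FPKM and were not tested. RAD51D was at 0.826, 0.858 and 0.833 FPKM in the silenced libraries and at 0.868, 1.05 and 0.877 FPKM in the controls. RAD54B, a relative of RAD54L, was at 0.405, 0.459 and 0.499 FPKM against 1.05, 1.06 and 0.712 FPKM. Both were lower in every silenced library than in any control, but RAD54B shares 59.1% of its exon bases with FSBP on the same strand. When no filter on low values was applied, RAD54B was called lower (log2 fold change −0.89 ± 0.22 SE, adjusted p = 0.044, limma), at 38 to 102 reads per library, and RAD51D was not (−0.13, adjusted p = 0.616, limma).

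Of the 5 genes of end resection and dissolution that were tested, only BLM was called (20%, beside 7.45% of all genes), and 3 had an adjusted p under 0.05 in the lower direction (limma; 23.1% of all genes). BLM, the Bloom syndrome helicase that takes apart recombination intermediates, was at 2.88, 2.74 and 2.77 FPKM in the silenced libraries and at 5.14, 4.75 and 4.50 FPKM in the controls. The silenced mean was 58.4% of the control mean with no overlap (log2 fold change −0.75 ± 0.07 SE, adjusted p = 0.000253, limma). BLM lies at chr15:90717327-90816165 on the plus strand (GRCh38) and shares no exon bases.

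The nucleases showed smaller differences. EXO1, an exonuclease that extends resection and also serves mismatch repair, was lower by the limma test at a log2 fold change of −0.48 (adjusted p = 0.00143). MRE11, the nuclease that starts resection, had −0.41 (adjusted p = 0.0013, limma). MRE11 works in a complex with NBN and RAD50. NBN was at 14.9 ± 1.004 FPKM (SD, n = 3) against 13.7 ± 0.473 FPKM (SD, n = 3), with overlapping groups and a log2 fold change of 0.12. RAD50 was not tested; it was at 0.915, 0.935 and 0.848 FPKM in the silenced and 0.825, 0.629 and 0.763 FPKM in the control libraries, and 79.7% of its exon bases are shared with AC116366.3 on the same strand. RBBP8, the cofactor that activates MRE11, had a log2 fold change of −0.07 with overlapping groups.

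The Fanconi genes held the most calls of any role: 5 of 11 fell (7.45% of all genes), 7 of 11 had an adjusted p under 0.05 in the lower direction (limma; 23.1% of all genes), and the median log2 fold change was −0.44. FANCI and FANCD2 form the clamp that the core complex marks with ubiquitin. FANCI was at 10.95, 11.44 and 11.47 FPKM in the silenced libraries and at 21.4, 20.8 and 20.4 FPKM in the controls. These groups were far apart relative to their spread, and the silenced mean was 54.1% of the control mean, the lowest of all members tested (log2 fold change −0.88 ± 0.04 SE, adjusted p = 2.08e-05, limma). FANCD2 was at 3.37, 3.63 and 3.24 FPKM against 5.95, 5.53 and 5.60 FPKM. Its groups did not overlap either (log2 fold change −0.72 ± 0.06 SE, adjusted p = 0.000229, limma). FANCI lies at chr15:89243949-89317261 and FANCD2 at chr3:10026414-10101930, both on the plus strand (GRCh38).

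Of the core complex, FANCL is the ubiquitin ligase and FANCB holds it in a module. FANCL was at 5.70, 5.37 and 5.33 FPKM in the silenced libraries and at 8.20, 7.53 and 7.84 FPKM in the controls. The silenced libraries were all lower (log2 fold change −0.51 ± 0.05 SE, adjusted p = 0.000443, limma), but the call was lost without BrM3-shAKR1B10 replicate 3, at −0.50, and without BrM3-shNC replicate 1, at −0.48. FANCL shares 18.7% of its exon bases with VRK2 on the opposite strand. FANCB was at 1.64, 1.65 and 1.52 FPKM against 2.47, 2.49 and 2.65 FPKM. FANCB was thus separate in all libraries at a low level, 97 to 174 reads per library (log2 fold change −0.63 ± 0.08 SE, adjusted p = 0.00138, limma).

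FANCA, a further core subunit, was at 2.23, 2.08 and 2.37 FPKM in the silenced libraries and at 3.27, 3.24 and 3.19 FPKM in the controls. No silenced value reached the controls (log2 fold change −0.52 ± 0.07 SE, adjusted p = 0.00164, limma); without BrM3-shAKR1B10 replicate 2 the change was −0.48 and no longer called. FANCA shares 23.6% of its exon bases with ZNF276 on the opposite strand, which was at a mean of 3.07 FPKM in the silenced and 2.50 FPKM in the control group. The other core subunits were not called: FANCE and FANCG had log2 fold changes of −0.44 and −0.41 with adjusted p under 0.05 (limma), whereas FANCC, at −0.07, and FANCF, at 0.05, overlapped between groups. FANCM, which recruits the core to DNA, and BRIP1, a helicase bound to BRCA1, were lower in every silenced library than in any control but did not pass the test (log2 fold change −0.29, adjusted p = 0.0546, and −0.20, adjusted p = 0.16, limma).

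**Figure D2:**
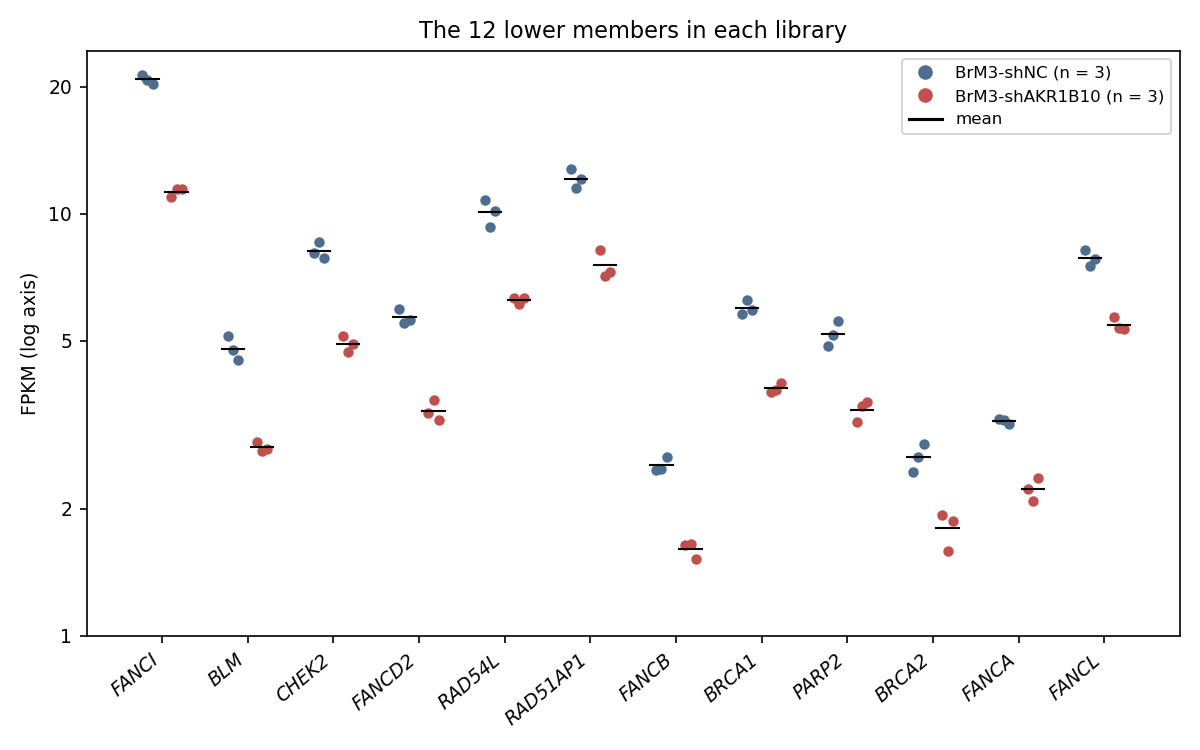
FPKM on a log axis of the 12 members called lower, 1 point per library and a line at the mean of the 3 libraries of a group, BrM3-shNC in blue and BrM3-shAKR1B10 in red. In every gene the 3 silenced points lie below the 3 control points, from FANCI near 11 against 21 FPKM to FANCB near 1.6 against 2.5 FPKM.

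E2F factors drive many S phase genes, and their sites were looked for as fixed letters in the promoters. The RefSeq windows (GRCh38.p14) run from 250 bases before to 50 after each start, and the E2F-type words TTTCCCGC, TTTGGCGC, TTTCGCGC and TTTGCCGC were searched on both strands. A window was found for 40 of the 45 members, and none for XRCC5, NBN, PRKDC, RAD54B and FANCI. At least 1 word stood in the windows of 10 of the 40 members (25.0%), and in those of 3.99% of all 27305 genes. The following stretches, 5′ to 3′ on the strand of the gene with the word in capitals, are those of the only called members with a word, FANCD2 and FANCA, and of 3 members that were not called:
FANCD2 (chr3:10026424-10026453, plus strand): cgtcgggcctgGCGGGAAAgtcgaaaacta
FANCA (chr16:89816801-89816830, minus strand): actacaccgcgGCGGCAAAgccaaacgcaa
FANCC (chr9:95317737-95317766, minus strand): ttcgtcggaatTTTCCCGCgacgccgcggg
UNG (chr12:109098098-109098127, plus strand): gagggaggtttTTTGCCGCgaaaagaccac
PMS2 (chr7:6009131-6009160, minus strand): cgggaagtattTTTGCCGCcccgcccggaa

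In FANCD2 and FANCA the capitals are a word read on the opposite strand; in FANCD2 the word lies at the annotated start itself. A word stood in 2 of the 11 called members with a window (18.2%) and in 8 of the 29 others (27.6%). By pathway, 5 of 25 recombination and Fanconi genes (20%) and 5 of 11 mismatch, excision and end-joining genes (45.5%) held one. The CHR word TTTGAA, found in promoters of G2/M genes, stood in 6 of the 40 members (15.0%), none of them called, and in 18.2% of all genes. The CCAAT word stood in 22 of the 40 members (55.0%) and in 39.7% of all genes. These counts describe letters in a window and are not evidence of binding, and no test was made of them.

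Of the 4 checkpoint kinases only CHEK2 was called (25%, beside 7.45% of all genes). CHEK2, the kinase activated by ATM, was at 5.13, 4.71 and 4.92 FPKM in the silenced libraries and at 8.08, 8.59 and 7.88 FPKM in the controls. It fell to 60.1% of the control mean without overlap (log2 fold change −0.72 ± 0.05 SE, adjusted p = 0.000133, limma). CHEK2 lies at chr22:28687743-28742422 on the minus strand (GRCh38). CHEK1, the kinase activated by ATR, stayed inside the limit on size at −0.40 on the log2 scale (adjusted p = 0.00531, limma).

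Neither sensor was called. ATM was at 2.13, 2.22 and 2.17 FPKM in the silenced libraries and at 1.80, 1.71 and 1.71 FPKM in the controls. The silenced ATM values were all higher, with the largest positive log2 fold change of the members tested, 0.31 ± 0.08 SE (adjusted p = 0.0224, limma), which is inside the limit on size. In 5 of the 6 fits that left out 1 library, and with the replicate block, the adjusted p of ATM was 0.054 to 0.0718 (limma). ATR was at 6.62 ± 0.217 FPKM (SD, n = 3) against 6.20 ± 0.413 FPKM (SD, n = 3), with overlapping groups.

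Base excision and single-strand break repair comprised 4 genes, each with an adjusted p under 0.05 in the lower direction (limma; 23.1% of all genes), and their median log2 fold change was −0.46. Only PARP2 was called (1 of 4, beside 7.45% of all genes). PARP2, a poly(ADP-ribose) polymerase activated by DNA breaks, was at 3.21, 3.50 and 3.59 FPKM in the silenced libraries and at 4.86, 5.17 and 5.58 FPKM in the controls. The PARP2 groups did not overlap (log2 fold change −0.58 ± 0.07 SE, adjusted p = 0.00108, limma). At its start, 104 of its exon bases (2.54%) are shared with AL355075.4 on the opposite strand, which was at 88.9, 65.5 and 60.3 FPKM in the silenced libraries and is listed at 0 in all 3 controls. RPPH1, which lies inside AL355075.4, is listed at 0 in all 6 libraries. Whether the reads given to AL355075.4 come from that gene or from the shRNA vector cannot be told apart in these values, and what they add to PARP2 was not tested.

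PARP1, the main enzyme of that family, was at 42.4 ± 1.24 FPKM (SD, n = 3) against 59.2 ± 0.219 FPKM (SD, n = 3). Its log2 fold change of −0.48 ± 0.03 SE (adjusted p = 8.59e-05, limma) was just inside the limit on size. XRCC1, the scaffold of single-strand break repair, and UNG, the glycosylase that removes uracil from DNA, had −0.44 and −0.41. Without BrM3-shAKR1B10 replicate 3, XRCC1 was also called, at −0.51.

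In mismatch repair no member was called. MSH6, which recognises mismatches, was at 7.01, 7.52 and 7.60 FPKM in the silenced libraries and at 8.54, 8.55 and 8.66 FPKM in the controls. The difference was small but exceeded the spread (log2 fold change −0.22 ± 0.04 SE, adjusted p = 0.00883, limma). PMS2, an endonuclease of this pathway, was at 5.19, 4.70 and 5.19 FPKM against 5.08, 5.57 and 5.10 FPKM, and its groups overlapped. MSH6 shares 16.2% of its exon bases with FBXO11 on the opposite strand.

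Both nucleotide excision genes were slightly higher. XPC, the damage sensor, was at 5.83, 6.08 and 6.52 FPKM in the silenced libraries and at 5.38, 5.32 and 5.53 FPKM in the controls. ERCC1, a subunit of the nuclease that cuts beside the lesion, was at 12.7, 12.8 and 12.6 FPKM against 9.90, 11.02 and 11.4 FPKM. Neither overlapped between groups, with log2 fold changes of 0.18 ± 0.05 SE (adjusted p = 0.0361) and 0.24 ± 0.06 SE (adjusted p = 0.0169, limma), inside the limit on size. Of all genes, 25.5% had every silenced value above the controls, and 19.4% were higher at an adjusted p under 0.05 (limma). Leaving out 1 library took the adjusted p of XPC to between 0.064 and 0.0985 in 5 of 6 fits and that of ERCC1 to 0.0511 and 0.0515 in 2 of 6 (limma). ERCC1 shares 28.6% of its exon bases with CD3EAP on the opposite strand. XPC shares 30.4% with genes on the opposite strand, among them AC093495.1 (23.8%), AC090004.1 (8.61%) and LSM3 (6.63%), and LSM3 was at a mean of 14.0 FPKM in the silenced and 17.2 FPKM in the control group.

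The end-joining genes included the most abundant members, and none was called. The Ku subunits XRCC6 and XRCC5 bind broken ends. XRCC6 was at 160, 166 and 166 FPKM in the silenced libraries and at 188, 188 and 184 FPKM in the controls. XRCC5 was at 83.0, 83.8 and 83.3 FPKM against 108, 99.0 and 100.0 FPKM. PRKDC, the kinase that Ku recruits, was at 20.2, 20.8 and 20.5 FPKM against 23.7, 23.6 and 24.0 FPKM. All 3 were lower in every silenced library, at 81.5 to 87.8% of the control mean, with log2 fold changes of −0.19, −0.29 and −0.21 (adjusted p = 0.00334, 0.00142 and 0.00182, limma). Of all genes, 29.2% had every silenced value below the controls, and 23.1% were lower at an adjusted p under 0.05 (limma).

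LIG4, the ligase of this pathway, was at 6.80, 6.79 and 5.99 FPKM in the silenced libraries and at 6.51, 6.13 and 5.85 FPKM in the controls. TP53BP1, which shields ends from resection, was at 5.81, 6.23 and 6.05 FPKM against 5.91, 5.36 and 5.60 FPKM. Both overlapped between groups and did not pass the test (log2 fold change 0.08 and 0.10, adjusted p = 0.382 and 0.188, limma). TP53BP1 shares 28.7% of its exon bases with TUBGCP4 on the opposite strand.

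**Figure D3:**
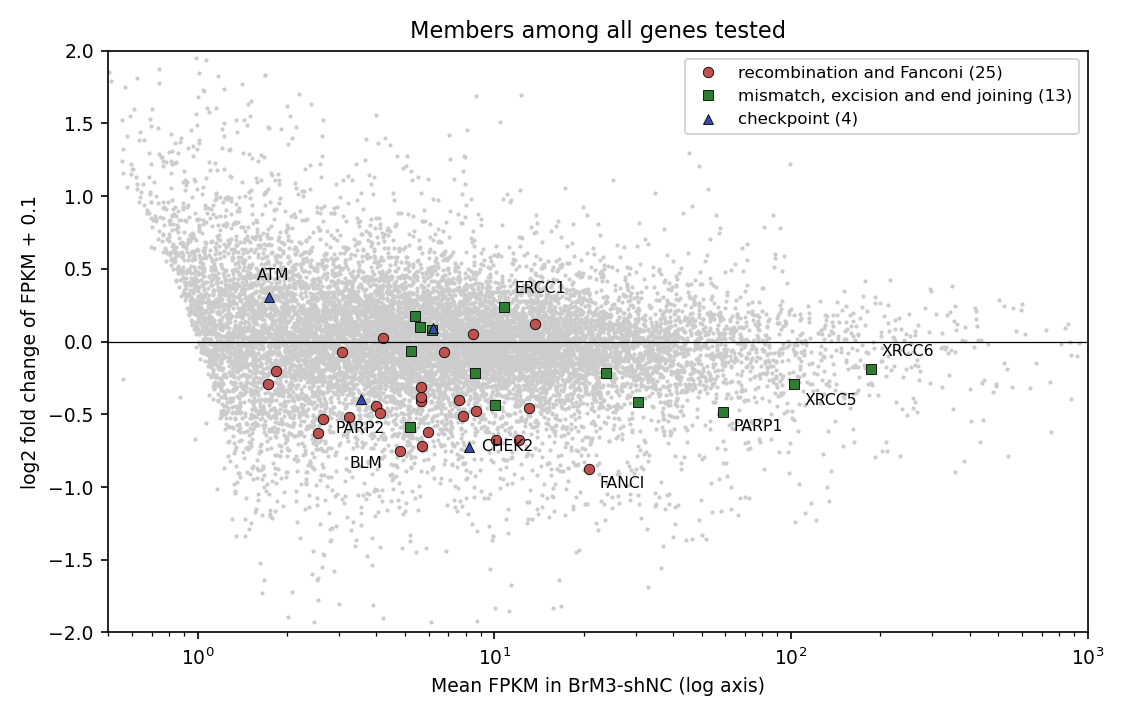
Log2 fold change of FPKM + 0.1 against the mean FPKM in BrM3-shNC (log axis) for the genes tested in grey, except 86 that lie outside the axes, and for the 42 members in colour. FANCI, BLM and CHEK2 lie among the lowest coloured points, and the abundant XRCC6, XRCC5 and PARP1 lie between −0.5 and 0.

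Taken by pathway, 10 of the 25 recombination and Fanconi genes tested fell (40%), with a median log2 fold change of −0.46. Of the 13 mismatch, excision and end-joining genes 1 fell (7.69%), with a median of −0.21, beside the 7.45% of all genes called lower. Without a limit on size, 18 of 25 and 8 of 13 were lower at an adjusted p under 0.05 (limma), beside 23.1% of all genes, and 0 and 2 were higher, beside 19.4% of all genes. The difference of the medians was −0.24. Among the 13 genes, base excision and single-strand break repair had a median of −0.46, as recombination and Fanconi genes did. End joining had −0.19, mismatch repair −0.14 and nucleotide excision 0.21. Measured against the control mean in each library, the median over recombination and Fanconi genes was −0.45, −0.48 and −0.43 in the silenced libraries, and that over mismatch, excision and end-joining genes −0.23, −0.19 and −0.17. The recombination and Fanconi median was thus the lower one in each of the 3 silenced libraries, and in the controls both stayed within 0.02 of 0. The difference between the pathways was described and not tested.

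Other genes of the same pathways were read from lists that share no gene with the members. Of 37 tested recombination and Fanconi genes outside the members, 8 fell (21.6%) and 1 rose, with a median log2 fold change of −0.24. EME1, a subunit of a nuclease that cuts recombination intermediates, MCM8, a helicase, and UBE2T, the ubiquitin-conjugating enzyme that works with FANCL, were the lowest at −0.65, −0.64 and −0.62, and FAAP100, a core complex subunit that pairs with FANCB and FANCL, was higher at 0.51. Of 47 tested mismatch, excision and end-joining genes, 6 fell (12.8%) and 1 rose, with a median of −0.09; over all genes 7.45% were called lower and 5.83% higher. NEIL3, a glycosylase, and XRCC4, the partner of LIG4, were among the lowest at −0.99 and −0.72, and ERCC6, a transcription-coupled repair factor, was higher at 0.73. The order of the pathways was as among the members, with a smaller gap.

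ERCC6 was at 4.59, 4.73 and 4.87 FPKM in the silenced libraries against 2.97, 2.79 and 2.66 FPKM in the controls, and was thus higher in every silenced library. It passed the test (adjusted p = 0.000217, limma).

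Of 21 other checkpoint genes, 6 fell (28.6%, beside 7.45% of all genes) and 0 rose (5.83% of all genes), with a median log2 fold change of −0.24. The lowest were CDC25C and CDC25B, the phosphatases that the checkpoint kinases restrain, at −1.22 and −1.13, and MDC1, an adaptor at breaks, at −0.86. MDC1 was at 6.04, 5.98 and 5.83 FPKM in the silenced libraries and at 10.9, 11.04 and 10.8 FPKM in the controls.

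Genes of the cell cycle were lower in the same libraries. Of 31 S phase genes outside repair, 16 fell (51.6%) and 0 rose, with a median log2 fold change of −0.51; PRIM1, DSCC1 and TYMS were the lowest, at −1.06, −0.98 and −0.91. Of 53 G2/M genes, 49 fell (92.5%) and 0 rose, with a median of −1.08, and CENPA, HMMR and GAS2L3 were the lowest, at −1.45, −1.36 and −1.36. For both lists, the shares over all genes were 7.45% called lower and 5.83% called higher. In each silenced library the recombination and Fanconi median lay nearer to that of the S phase genes (−0.51, −0.54 and −0.49) than to that of the G2/M genes (−1.045, −1.03 and −1.08). The part of the cell cycle in the members' levels was not tested.

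**Figure D4:**
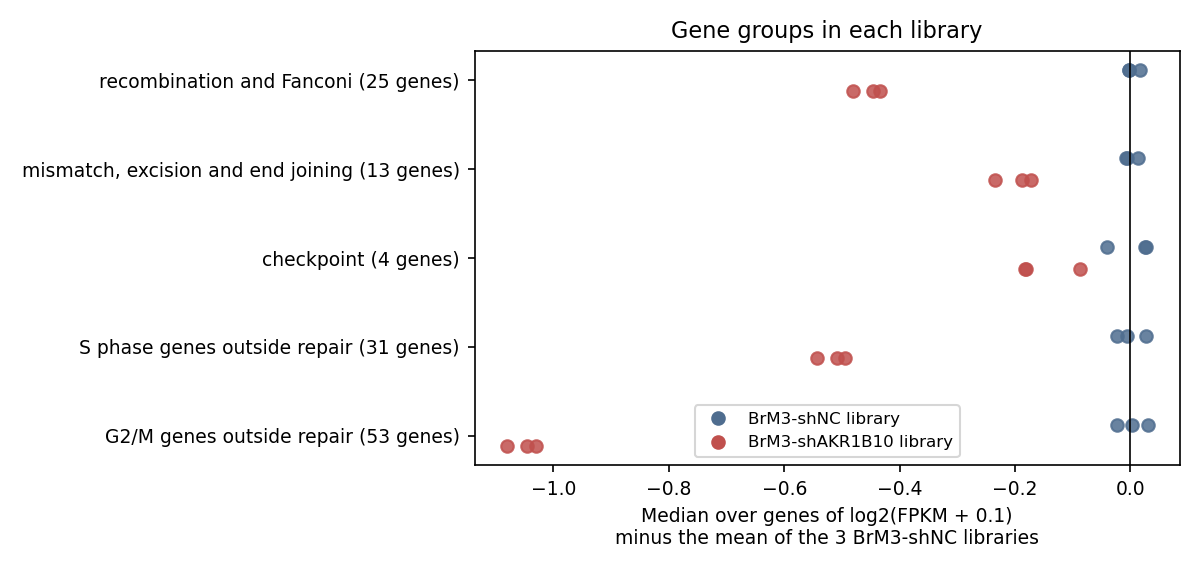
For each gene group, the median over its tested genes of log2(FPKM + 0.1) minus the mean of the 3 control libraries, 1 point per library (BrM3-shNC blue, BrM3-shAKR1B10 red). The silenced points lie near −0.45 for recombination and Fanconi genes, near −0.2 for mismatch, excision and end joining, near −0.5 for S phase genes and between −1.08 and −1.03 for G2/M genes, and the control points lie close to 0.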

How the data were processed

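Poly-T selected mRNA of 6 libraries was sequenced. Per the supplementary methods and the submitters' processing notes, the authors aligned filtered reads with HISAT2 v2.0.5, counted them with featureCounts v1.5.0-p3 and deposited FPKM values per gene; the strand setting and the handling of ambiguous reads are not given in the sources used here, and the library kit does not mark strand. All 58735 identifiers, positions and lengths match GENCODE 29 (GRCh38). FPKM gave back whole reads for 100% of values (tolerance 0.01); 3 reads on 1000 bases correspond to 0.163 to 0.177 FPKM, which covers counting error only.

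Groups and replicate numbers came from the labels. Genes with a mean of at least 1 FPKM were tested with limma 3.58.1 (R 4.3.3) on log2(FPKM + 0.1), eBayes with a trend and Benjamini-Hochberg adjustment. The paper's thresholds were used (adjusted p under 0.05, log2 fold change beyond 0.5); the main test was made on the deposited unit in place of the paper's test on counts, and the recovered reads served an alternative. The fit was tested on simulated data. Members and gene lists were chosen with earlier results of these data known, so no p was computed for a list. HROB was looked up as C17orf53. Named were all called members, all members of roles without a call, AKR1B10, and of each other list up to 3 called genes at either end, except for an item that is not reported here. ERCC6 and MDC1 were chosen for values per library, and shared exons given, after values were seen. Shared exons were counted in GENCODE 29, over both strands. Alternatives covered the filter, the pseudocount, scaling, the trend, limma voom on recovered reads, thresholds, role assignment, a replicate block and each library left out.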

Additional observations from a re-analysis of the deposited data

How the results depend on the processing

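The 12 lower members, of which 10 were recombination and Fanconi genes and 1 a mismatch, excision or end-joining gene, depended on size limits. With a mean of at least 5 FPKM these counts were 5, 4 and 0, because fewer genes were tested; with a pseudocount of 1 they were 7, 6 and 0, and the difference of the medians was −0.19. A log2 fold change beyond 1 left 0, 0 and 0, and no limit on size gave 28, 18 and 8, with 3 members higher. With no filter on low values they were 13, 11 and 1, with RAD54B gained. Leaving out each library in turn gave 11 to 14, 9 to 11 and 1 to 2 lower genes, and a difference of medians between −0.27 and −0.21. PALB2 ranged from −0.031 to 0.080, below 0 without BrM3-shAKR1B10 replicate 2 (−0.021) or BrM3-shNC replicate 2 (−0.031). With a pseudocount of 1, BRCA2, FANCA, FANCB, FANCL and PARP2 lost their calls, and with TPM scaling FANCA and FANCL did. With members sharing at most 10% of exon bases, chosen after seeing the data, 9 of 31 were lower (7 of 20 and 1 of 8). The share of all genes called lower was 7.45%, and the difference of medians was −0.20. The cause of these shifts was not tested.

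With the replicate block, 12, 10 and 1 genes were lower, the difference of medians was −0.24, and no member's call changed, though the adjusted p of ATM and XPC rose to 0.0656 and 0.0531 (limma). Same-numbered libraries did not deviate together (correlations −0.0155, 0.00388 and 0.00383). Whether they were grown or prepared together is not given in the sources used here. Voom on recovered reads and median-of-ratios scaling changed no member's call. At under 1 FPKM, RAD50, RAD51D and RAD54B rested on 38 to 201 reads per library, which limits their precision.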

Other observations

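The listed targets of p53, the transcription factor activated by the checkpoint kinases, had a median log2 fold change of 0.11 over 25 tested genes, of which 4 rose (16.0%) and 1 fell (4.0%) by the same limma test and thresholds. TP53I3, a quinone oxidoreductase, was at 7.32, 7.16 and 6.95 FPKM in the silenced libraries and at 2.47, 2.66 and 2.73 FPKM in the controls, a log2 fold change of 1.41. CDKN1A, the p21 inhibitor of cyclin-dependent kinases, was at 13.8, 13.8 and 13.1 FPKM against 8.02, 8.80 and 8.44 FPKM, a change of 0.68, and BTG2, an antiproliferative gene, changed by 0.71. POLH, a polymerase that copies past lesions, was the gene that fell, at −0.51. TP53I3, CDKN1A and BTG2 were each higher in every silenced library than in any control, and 20 of the 25 genes were not called in either direction, beside 5.83% of all genes called higher and 7.45% lower.

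Levels of partners within a complex or signal were also set side by side, for pairs chosen after their values were seen and without a test. The ratio of CHEK2 to ATM, in FPKM, was 2.41, 2.12 and 2.27 in the silenced libraries and 4.48, 5.02 and 4.62 in the controls. The ratio of MRE11 to NBN was 0.282, 0.270 and 0.299 against 0.397, 0.454 and 0.391, and that of BRCA2 to PALB2 was 0.491, 0.350 and 0.430 against 0.560, 0.682 and 0.649. FANCI to FANCD2, both lower, gave 3.25, 3.15 and 3.53 against 3.59, 3.77 and 3.64. In these 4 pairs every silenced ratio was below every control ratio. CHEK2, MRE11, BRCA2 and FANCI were themselves lower in every silenced library, so the ratios add no separate support. The ratios of CHEK1 to ATR, FANCA to FANCF and BRCA1 to BARD1 were also computed and separated in the same direction. How often other gene pairs separate in this way was not counted.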
